A study of Mus musculus and Rattus norvegicus with 18 samples.

Results

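The genes described here encode collagens that do not build the thick interstitial fibres: the collagen VI chains Col6a1, Col6a2 and Col6a3, the collagen VIII chains Col8a1 and Col8a2, and Col12a1, Col14a1, Col15a1, Col16a1 and Col27a1. They were chosen by symbol from a list of 10 names. All 10 were among the 22322 genes counted in mouse cells, and 9 were among the 22050 genes counted in rat cells, where Col6a3 was not analysed. Messenger RNA enriched with oligo(dT) beads was sequenced from mouse primary kidney tubular epithelial cells (TECs) and from NRK49F, an established rat kidney fibroblast line. Each cell kind had a control group in medium alone, a group given TGF-β1 at 5 ng/ml for 24 h, and a group given 20 nM narciclasine from 2 h ahead of the same TGF-β1. There were 3 libraries in each of the 6 groups, and every group, controls included, had first been starved of serum for 6 h. Narciclasine is a plant alkaloid of the daffodil family that acts on the ribosome. No group received narciclasine alone, so what the compound did to the TGF-β1 response and what it does by itself cannot be told apart. Mouse against rat and epithelial cell against fibroblast cannot be told apart either. The labels call the libraries of a group biological replicates without saying whether they came from separate animals or cultures, and p-values then measure the spread between these libraries, which may be technical. NRK49F is a single cell line.

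Collagen VI is assembled inside the cell from its α1, α2 and α3 chains and is secreted to form beaded microfibrils near the cell surface, where it links basement membranes to the interstitial matrix. Collagens XII, XIV and XVI, encoded by Col12a1, Col14a1 and Col16a1, are FACITs, fibril-associated collagens with interrupted triple helices that sit on the surface of larger fibrils and connect them to other matrix proteins. The remaining genes are outside the beaded and FACIT classes by their textbook structure. Collagen VIII (Col8a1, Col8a2) forms short-chain hexagonal networks, collagen XV (Col15a1) is a basement membrane multiplexin related to collagen XVIII, and collagen XXVII (Col27a1) belongs to the fibrillar class. TGF-β1 is widely used to induce matrix genes in cultured kidney cells, and collagen VI and collagen XII are among the matrix proteins deposited in fibrotic tissue.

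Total counts ran from 16652016 to 25192716 per library in TECs and from 14695732 to 18463855 in NRK49F. The listed collagens together took 0.0168% to 0.0171% of the counts of control TECs and 0.248% to 0.291% of those of control NRK49F. The TECs carried the epithelial markers Epcam (289 to 297 CPM in controls) and Cdh1 (809 to 823 CPM). Of the fibroblast markers, Lum and Dcn had at most 2 and 10 counts in any library. Pdgfrb stood at 17.1 to 17.9 CPM and Pdgfra at 2.39 to 4.1 CPM in control TECs. CPM is a gene's count scaled to the size of its library, with library sizes adjusted by TMM, a normalisation that assumes most genes do not change. NRK49F expressed Pdgfra at 330 to 399 CPM in controls and Epcam at 0 to 5 counts, while the fibroblast markers Dcn and Thy1 were at no more than 7 and 1 counts and the epithelial keratin Krt8 stood at 1190 to 1230 CPM in controls. TGF-β1 raised its known targets Smad7 (log2 change 1.60 in TECs and 0.88 in NRK49F), Fn1 (2.35 and 1.51) and Ccn2 (0.92 and 5.09). Below, a narciclasine replicate is a library of the group given both agents. In control NRK49F, replicate 2 was the highest library for 6 of the 9 collagens counted there and the lowest for Col12a1, Col14a1 and Col15a1.

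In TECs, TGF-β1 raised nearly all of these collagens, 5 of them by more than 4-fold. Of the 10, 9 had enough counts to be tested, Col14a1 being below the filter on low counts. By edgeR's quasi-likelihood test with Benjamini-Hochberg adjustment over 13244 genes, 8 of the 9 rose and none fell at an adjusted p under 0.05, against a background of 34.1% of all tested genes rising and 34.9% falling (69% in all). The libraries of the groups did not overlap for 8 of 9, against 71.2% of all tested genes. The median log2 change of the collagens tested was 2.15, beside −0.0049 over all genes tested. Col6a2 was the gene with no call. In bulk RNA, fewer cells of a kind and less RNA per cell cannot be told apart, and this holds for every level given here.

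Adding narciclasine lowered 6 of the 9 collagens tested in TECs, raised Col12a1 and left Col6a2 and Col8a2 without a call. Over all genes tested, 25.5% fell and 26.8% rose in this comparison (52.3% in all). Libraries did not overlap for 7 of 9 collagens, against 57.1% of all genes, and the median log2 change was −0.51, beside 0.0019 over all genes. Set against control TECs, cells with TGF-β1 and narciclasine had 6 collagens higher and 1, Col6a3, lower, against backgrounds of 32.4% and 30.6% (63% in all), and 7 of 9 did not overlap, against 66.3%. The comparisons share libraries, so each is given with its own values. The summed counts of the listed collagens were 0.0543% to 0.0545% of all counts with TGF-β1 and 0.0526% to 0.0539% with narciclasine added, and most of these counts were those of Col12a1.

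Markers of matrix-producing cells also moved in TECs. The summed level of 10 fibroblast markers was 20.8 to 22.1 CPM in controls, 30.9 to 32.2 CPM with TGF-β1 and 21.9 to 26.8 CPM with narciclasine added. Most of that sum was Pdgfrb, at means of 17.4, 23.0 and 16.3 CPM in the same order. Of these fibroblast markers, 2 of the 3 tested rose with TGF-β1, beside 34.1% of all genes, and 2 fell with narciclasine, beside 25.5%. Pi16 was at 0 in all control libraries and Dpt in all TGF-β1 libraries. The sum of 7 pericyte and smooth muscle markers was 151 to 157, 363 to 382 and 329 to 338 CPM in the same order, with none at 0 throughout a group. With TGF-β1 most of it was Mcam (mean 219 CPM) and Cspg4 (103 CPM). Of the 6 tested, 3 rose with TGF-β1, while Myh11, Des and Notch3 had no call. With narciclasine added 5 of the 6 fell. The part of these markers in the collagen values was not tested.

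**Figure D1:**
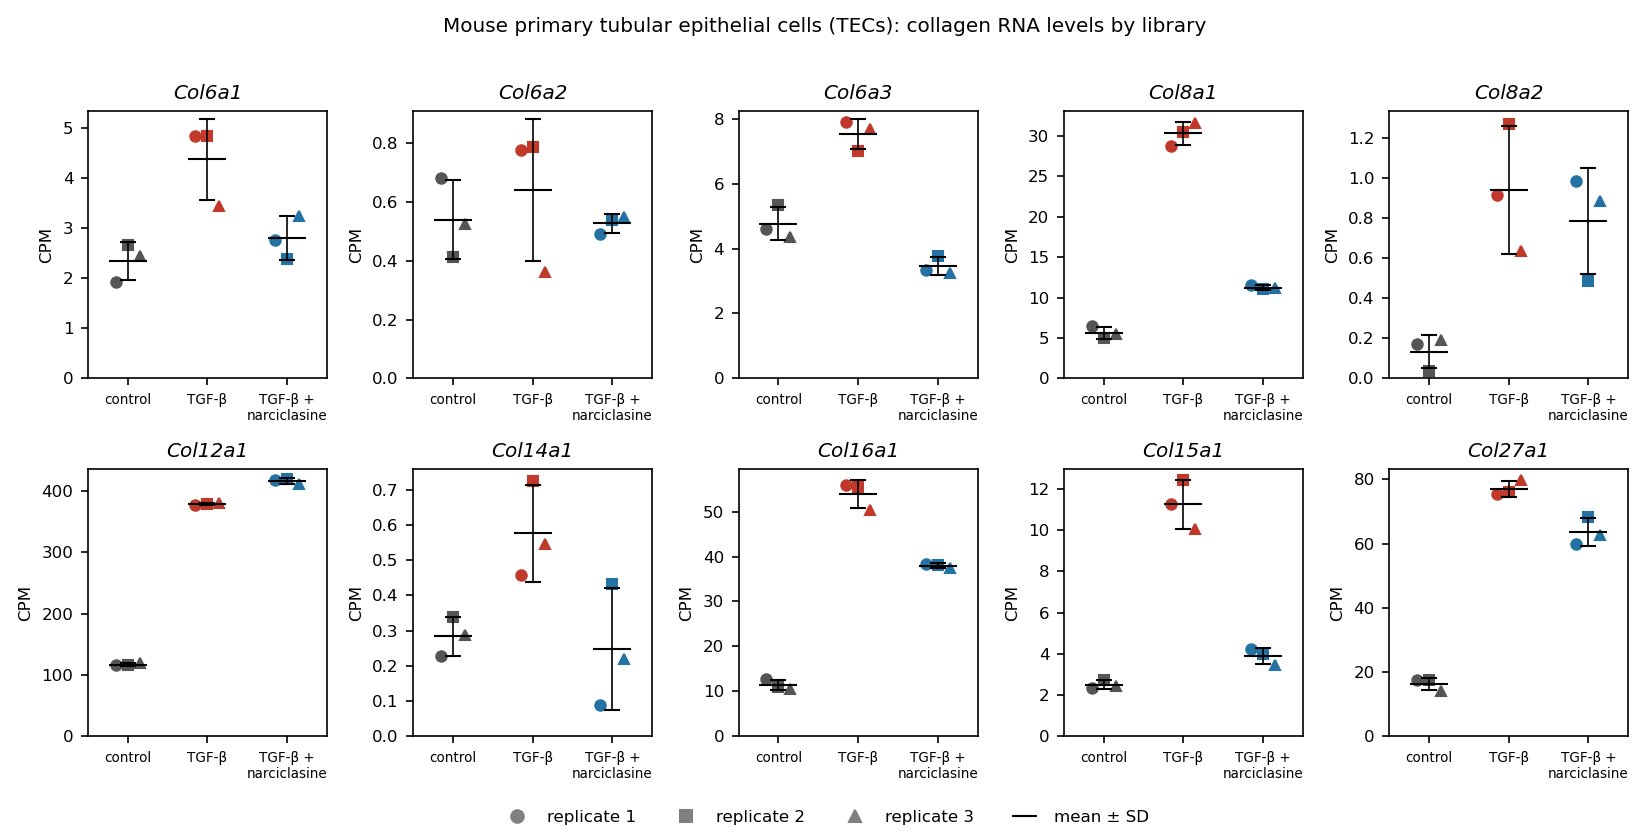
Level of each collagen in TECs in CPM (linear axis from 0, a separate scale for each gene), with 1 point per library, shaped by replicate, and the mean ± SD of 3 libraries. Col8a1, Col15a1 and Col6a3 stand high with TGF-β and lower with narciclasine added, whereas Col12a1 stands at 376.5 to 380.7 CPM with TGF-β and at 410.8 to 419.2 CPM with narciclasine added.

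Within collagen VI, the α1 chain gene Col6a1 (ENSMUSG00000001119, GRCm38 chromosome 10, 76708792 to 76726168, minus strand) had 1.93, 2.67 and 2.44 CPM in the control libraries, 4.84, 4.84 and 3.45 CPM with TGF-β1, and 2.77, 2.38 and 3.25 CPM with narciclasine added. All libraries with TGF-β1 alone were above the libraries of both other groups, which overlapped each other. Col6a1 rose by 0.87 on the log2 scale (SE 0.182, adjusted p = 6.43e-05, n = 3 per group, edgeR) and changed by −0.64 when narciclasine was added (SE 0.181, adjusted p = 0.00307). The second call ended when replicate 2 was left out of every group (−0.48, adjusted p = 0.0649). Against control, the log2 difference with both agents was 0.23 (SE 0.196, adjusted p = 0.313).

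The α3 chain gene Col6a3 (ENSMUSG00000048126, chromosome 1, 90765923 to 90843971, minus strand) encodes the longest of these collagen VI chains. It had 4.61, 5.34 and 4.35 CPM in control TECs, 7.90, 7.01 and 7.67 CPM with TGF-β1, and 3.35, 3.78 and 3.25 CPM with narciclasine added. No groups overlapped, and the libraries with both agents were the lowest. Col6a3 rose by 0.65 with TGF-β1 (SE 0.129, adjusted p = 2.63e-05) and changed by −1.13 with narciclasine added (SE 0.139, adjusted p = 7.17e-09). It then stood below control by a log2 difference of −0.47 (SE 0.147, adjusted p = 0.0052), a call that ended without control replicate 2 (−0.37, adjusted p = 0.0519).

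The α2 chain gene Col6a2 (ENSMUSG00000020241, chromosome 10, 76595762 to 76623630, minus strand) lies 85161 bases from Col6a1 on the same strand, with 1 annotated gene, not protein-coding, between them. It gave 8 to 17 counts per library in TECs and averaged 0.541 CPM ± 0.135 (SD, n = 3) in controls, 0.642 ± 0.241 with TGF-β1 and 0.528 ± 0.0315 with narciclasine added. All groups overlapped. Its log2 changes were 0.26 (SE 0.41, adjusted p = 0.586), −0.26 (adjusted p = 0.625) and, with both agents against control, −0.0013 (adjusted p = 0.998), so no difference was detectable at this depth.

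Collagen VIII showed the steepest rise. Col8a1 (ENSMUSG00000068196, chromosome 16, 57624258 to 57754737, minus strand), which encodes the α1 chain of this network collagen, had 6.43, 5.00 and 5.45 CPM in control TECs. It had 28.8, 30.5 and 31.6 CPM with TGF-β1 and 11.5, 11.02 and 11.1 CPM with narciclasine added. The groups did not overlap, and the libraries with both agents lay between the others. Col8a1 rose by 2.45 (SE 0.0887, adjusted p = 2.16e-25), or 5.46-fold, changed by −1.43 with narciclasine (SE 0.0798, adjusted p = 2.23e-18), and stayed 1.02 above control (SE 0.103, adjusted p = 2.73e-11). Its partner chain gene Col8a2 (ENSMUSG00000056174, chromosome 4, 126286793 to 126314330, plus strand) had 3, 1 and 4 counts in control libraries, 20, 21 and 14 with TGF-β1, and 22, 9 and 16 with narciclasine added. It rose by 2.83 (SE 0.533, adjusted p = 1.23e-05). Its change with narciclasine was −0.21 (SE 0.376, adjusted p = 0.666), and the level with both agents was above control by 2.62 (SE 0.549, adjusted p = 7.04e-05).

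Among the FACITs, Col12a1 (ENSMUSG00000032332, chromosome 9, 79598991 to 79718831, minus strand) was the gene that narciclasine raised. It had 115.9, 115.4 and 119.2 CPM in control TECs, 376.5, 378.4 and 380.7 CPM with TGF-β1, and 417.2, 419.2 and 410.8 CPM with narciclasine added. Every library with both agents was above every library with TGF-β1 alone. Col12a1 rose by 1.70 with TGF-β1 (SE 0.0272, adjusted p = 1.28e-37) and by a further 0.14 with narciclasine (SE 0.0249, adjusted p = 1.53e-05). With both agents it was 1.83 above control (SE 0.0271, adjusted p = 1.65e-38).

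Col16a1 (ENSMUSG00000040690, chromosome 4, 130047840 to 130099283, plus strand), a FACIT of connective tissue and cell surfaces, had 12.7, 10.9 and 10.5 CPM in control TECs. It had 56.0, 55.6 and 50.4 CPM with TGF-β1 and 38.4, 38.0 and 37.4 CPM with narciclasine added. None of the groups overlapped. Col16a1 rose by 2.25 (SE 0.0663, adjusted p = 1.65e-28), changed by −0.51 with narciclasine (SE 0.0554, adjusted p = 4.61e-10), and stayed 1.75 above control (SE 0.0695, adjusted p = 7.83e-24). Col14a1 (ENSMUSG00000022371, chromosome 15, 55307750 to 55520803, plus strand), the FACIT that associates with mature collagen I fibrils, was not tested in TECs. It gave 4, 9 and 6 counts in controls, 10, 12 and 12 with TGF-β1, and 2, 8 and 4 with narciclasine added.

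Col15a1 (ENSMUSG00000028339, chromosome 4, 47208161 to 47313167, plus strand), a collagen of the basement membrane zone, had 2.33, 2.74 and 2.44 CPM in control TECs, 11.3, 12.5 and 10.1 CPM with TGF-β1, and 4.25, 3.998 and 3.47 CPM with narciclasine added. The groups did not overlap, and narciclasine left the level nearer to control than to TGF-β1. It rose by 2.15 (SE 0.137, adjusted p = 2.95e-17), changed by −1.51 with narciclasine (SE 0.129, adjusted p = 6.45e-13) and stayed 0.63 above control (SE 0.161, adjusted p = 0.000801). Its exons overlap those of Gm12426, on the other strand, by 14 bases, and whether counting used strand is not given in the sources used here.

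Col27a1 (ENSMUSG00000045672, chromosome 4, 63214004 to 63334991, plus strand), is a fibrillar-class collagen known from cartilage. It had 17.4, 17.4 and 14.1 CPM in control TECs, 75.4, 76.0 and 79.9 CPM with TGF-β1, and 59.8, 68.2 and 62.8 CPM with narciclasine added. None of the groups overlapped. Col27a1 rose by 2.24 (SE 0.0632, adjusted p = 1.61e-25), changed by −0.28 with narciclasine (SE 0.0526, adjusted p = 3.36e-05) and stayed 1.96 above control (SE 0.0647, adjusted p = 2.22e-23).

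Sequences upstream of the mouse genes are shown because several of these collagens rose together in TECs. RefSeq (GRCm38.p6) gave 250 bases before the start of 8 of the 10 genes, Col12a1 and Col14a1 not being among them. The windows printed are those of 3 genes that rose more than 4-fold and of Col6a3, whose rise was the smallest of those called, all free of annotated exons. Capitals mark matches to CAGAC, the SMAD-binding element, on either strand, so that GTCTG is also in capitals.
Col8a1 (chr16:57754738-57754987, minus strand): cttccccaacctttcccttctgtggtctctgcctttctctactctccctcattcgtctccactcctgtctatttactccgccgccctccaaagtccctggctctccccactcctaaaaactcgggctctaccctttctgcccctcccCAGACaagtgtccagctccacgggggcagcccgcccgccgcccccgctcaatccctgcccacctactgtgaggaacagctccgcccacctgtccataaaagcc
Col15a1 (chr4:47207762-47208011, plus strand): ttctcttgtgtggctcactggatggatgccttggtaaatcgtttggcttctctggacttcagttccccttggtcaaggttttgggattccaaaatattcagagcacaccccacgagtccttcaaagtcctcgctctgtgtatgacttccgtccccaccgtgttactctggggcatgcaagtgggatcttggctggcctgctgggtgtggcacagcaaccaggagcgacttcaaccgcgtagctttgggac
Col27a1 (chr4:63215162-63215411, plus strand): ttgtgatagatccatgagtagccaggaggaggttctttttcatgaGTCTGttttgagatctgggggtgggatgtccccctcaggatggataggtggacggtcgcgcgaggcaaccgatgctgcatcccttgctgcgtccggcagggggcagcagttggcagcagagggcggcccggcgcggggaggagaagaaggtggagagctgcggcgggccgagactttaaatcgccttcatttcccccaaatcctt
Col6a3 (chr1:90843972-90844221, minus strand): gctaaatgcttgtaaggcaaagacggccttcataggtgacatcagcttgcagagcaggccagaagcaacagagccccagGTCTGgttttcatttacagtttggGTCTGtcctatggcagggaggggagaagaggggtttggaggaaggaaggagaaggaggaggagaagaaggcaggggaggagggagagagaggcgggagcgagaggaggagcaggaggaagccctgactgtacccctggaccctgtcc
Col8a1 had 1 match, 103 bases before its start, Col27a1 had 1 match at 205 bases and Col6a3 had 2, at 171 and 147 bases, while the letters are not in the window of Col15a1. The RefSeq start used for Col27a1 lies 1408 bases inside the GENCODE gene. Of the windows not printed, 1 of the pair for Col6a2 had a match, 35 bases before that start, and those of Col6a1, Col8a2 and Col16a1 had none. CAGAC was thus in 4 of the 9 windows of the 8 genes, beside 42.2% of 32851 RefSeq promoter windows of this length, and a match describes the sequence and not binding. The AP-1 motif TGANTCA, present in 6.75% of windows, was found in 1 of the 8 genes, Col6a1, at 90 bases before the start. The GC box GGGCGG (32.7% of windows) had 4 matches on both strands together in the windows of Col8a1 and Col8a2 each, and the TATA motif TATAAA (12.4%) had none in any of the 8 genes. Each motif was searched on both strands, and none contains another.

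Levels were compared between genes in TECs per kilobase of exon. The length was that of all annotated exons of a gene merged, whichever transcript holds them. It was 8326 bases for Col6a2 and 4380 for Col6a1, and the order of the genes depends on this choice of length. In controls Col12a1 was highest at 7.67 CPM per kilobase, followed by Col16a1 at 1.69, Col27a1 at 1.25 and Col8a1 at 0.718. Col6a1 at 0.536 and Col6a3 at 0.398 came next, with Col15a1 at 0.395 next to Col6a3. Col6a2 at 0.0649, Col14a1 at 0.0405 and Col8a2 at 0.0297 were at the low end. With TGF-β1 the order at the top stayed the same, with Col12a1 at 24.9, Col16a1 at 7.998, Col27a1 at 5.92 and Col8a1 at 3.87 CPM per kilobase, and Col15a1 at 1.78 stood above Col6a1 at 0.999. With narciclasine added, Col12a1 was at 27.3 and Col8a1 at 1.43 CPM per kilobase, and Col6a1 at 0.639 and Col15a1 at 0.615 were side by side. No rat gene lengths were used here, so rat levels are not compared between genes.

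In NRK49F fibroblasts, TGF-β1 raised Col12a1, Col16a1, Col8a1, Col8a2 and Col27a1 and lowered Col14a1 37.0-fold. Of the 9 collagens counted, 8 could be tested, Col15a1 being near 0 in every library. By edgeR's quasi-likelihood test over 11444 genes, 5 of the 8 rose and 1 fell, against backgrounds of 33.7% and 38% (71.8% in all), and libraries did not overlap for 6 of 8, against 74.3% of all genes. The median log2 change was 0.79, beside −0.0502 over all genes. Narciclasine lowered 6 of the 8 and raised Col14a1, against backgrounds of 31.1% and 31.6% (62.7% in all), with libraries not overlapping for 7 of 8 (70% of all genes) and a median of −1.27. With both agents against control, 3 collagens were higher and 4 lower, against 33.4% in each direction (66.8% in all), and 8 of 8 did not overlap, against 70.6%.

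**Figure D2:**
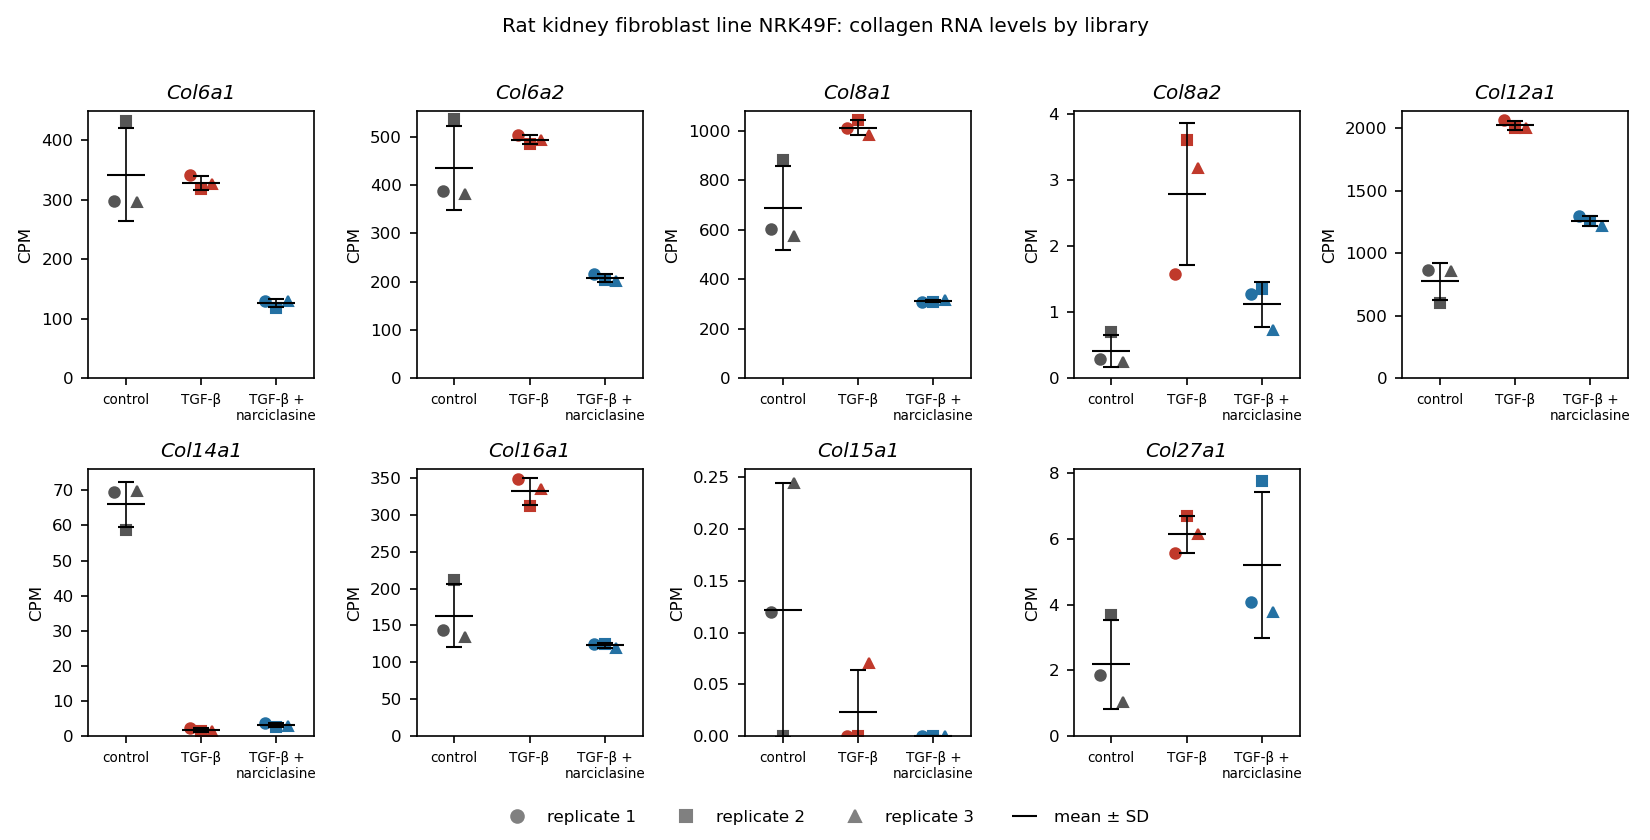
Level of each collagen in NRK49F in CPM (linear axis from 0, a separate scale for each gene), with 1 point per library, shaped by replicate, and the mean ± SD of 3 libraries. Col14a1 falls from 58.6 to 69.9 CPM in controls to 1.44 to 2.36 CPM with TGF-β, and control replicate 2 is the highest control library for 6 of the 9 genes.

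The collagen VI chain genes Col6a1 and Col6a2 were abundant in NRK49F and had no call with TGF-β1. Col6a1 (ENSRNOG00000001249) had 297.1, 432.5 and 295.9 CPM in controls, 340.9, 317.7 and 325.3 CPM with TGF-β1, and 130.4, 118.2 and 129.4 CPM with narciclasine added. Control replicate 2 was the highest of all 9 libraries, and every library with both agents was below all others. The log2 change with TGF-β1 was −0.06 (SE 0.138, adjusted p = 0.721). Without control replicate 2 it was 0.14 and called (adjusted p = 0.0138), so its direction rests on that library. With narciclasine added Col6a1 changed by −1.38 (SE 0.142, adjusted p = 3.42e-05) and stood at −1.44 against control (SE 0.142, adjusted p = 2.13e-05).

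Col6a2 (ENSRNOG00000001254) had 388.0, 535.6 and 381.2 CPM in control NRK49F, 503.6, 483.8 and 493.1 CPM with TGF-β1, and 216.6, 202.6 and 202.3 CPM with narciclasine added. As for Col6a1, control replicate 2 was the highest library and the group with both agents lay below the rest. The log2 change with TGF-β1 was 0.18 (SE 0.114, adjusted p = 0.176), and without control replicate 2 it was 0.35 (adjusted p = 4.2e-07). Col6a2 changed by −1.25 with narciclasine (SE 0.116, adjusted p = 6.63e-06) and stood at −1.07 against control (SE 0.116, adjusted p = 1.7e-05).

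The balance of the chains was compared as the log2 ratio of their counts within a library, which does not depend on scaling. In NRK49F the ratio of Col6a2 to Col6a1 was 0.353 ± 0.0399 (SD, n = 3) in controls, 0.590 ± 0.0237 with TGF-β1 and 0.718 ± 0.0678 with narciclasine added. The groups did not overlap, and each of these differences had p = 0.1 in a two-sided exact permutation test, the smallest value that 3 against 3 libraries allow (adjusted p = 0.2 over 6 tests). In TECs the same ratio was −2.14 ± 0.598 in controls, −2.84 ± 0.356 with TGF-β1 and −2.40 ± 0.228 with narciclasine (exact p = 0.3 and 0.1, adjusted 0.36 and 0.2), and rested on 8 to 17 counts of Col6a2. The ratio of Col6a3 to Col6a1 in TECs was 1.03 ± 0.210, 0.80 ± 0.319 and 0.31 ± 0.337 in the same order (exact p = 0.4 and 0.2, adjusted 0.4 and 0.3). None of the 6 tests could pass 0.05 in a design of this size.

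**Figure D3:**
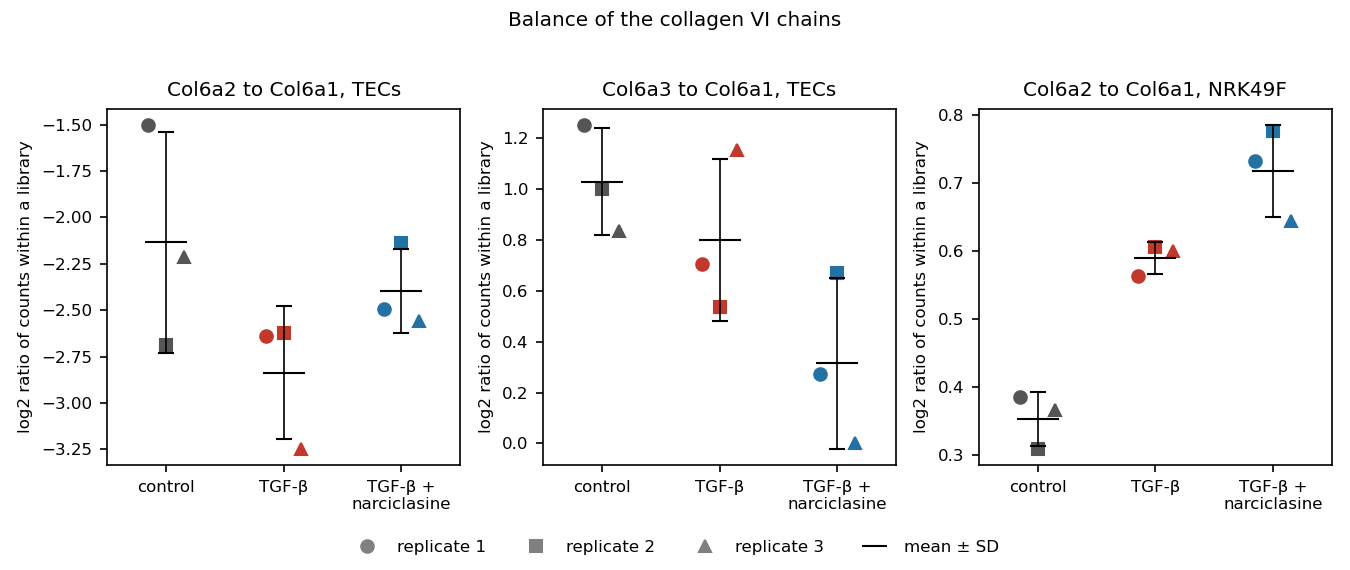
Log2 ratio of the counts of collagen VI chain genes within each library (y axis, a separate scale for each panel), with 1 point per library and the mean ± SD of 3 libraries. The ratio of Col6a2 to Col6a1 in NRK49F lies at 0.308 to 0.385 in controls, 0.563 to 0.607 with TGF-β and 0.644 to 0.777 with narciclasine added.

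Col8a1 (ENSRNOG00000039668) had 604.8, 882.4 and 574.3 CPM in control NRK49F, 1011, 1042 and 983.5 CPM with TGF-β1, and 308.3, 308.3 and 315.1 CPM with narciclasine added. Without overlap between groups, narciclasine left the gene below its control level. Col8a1 rose by 0.56 (SE 0.144, adjusted p = 0.00734), changed by −1.70 with narciclasine (SE 0.148, adjusted p = 1.19e-05) and stood at −1.15 against control (SE 0.146, adjusted p = 0.000126). Col8a2 (ENSRNOG00000010841) was scarce, at 5, 11 and 4 counts in controls, 24, 50 and 45 with TGF-β1, and 22, 25 and 11 with narciclasine added. It rose by 2.73 (SE 0.453, adjusted p = 6.74e-05) and changed by −1.29 with narciclasine (SE 0.39, adjusted p = 0.00989). Leaving out TGF-β1 replicate 2 (−1.06, adjusted p = 0.0573) or narciclasine replicate 3 (−1.06, adjusted p = 0.0504) ended the second call. It was above control by 1.45 with both agents (adjusted p = 0.0166), and this call ended without any 1 of control replicates 1 and 3 and narciclasine replicates 1 and 2 (adjusted p 0.0518 to 0.0637).

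Col14a1 (ENSRNOG00000026415) made the sharpest move of the list. It had 69.6, 58.6 and 69.9 CPM in control NRK49F, 2.36, 1.44 and 1.48 CPM with TGF-β1, and 3.83, 2.77 and 2.91 CPM with narciclasine added. Control libraries were far above all others, and every library with both agents was above every library with TGF-β1 alone. Col14a1 fell by 5.21 on the log2 scale (SE 0.16, adjusted p = 6.62e-13). It rose by 0.84 when narciclasine was added (SE 0.22, adjusted p = 0.00408) and still stood at −4.38 against control (SE 0.143, adjusted p = 1.76e-12). The summed level of the 10 fibroblast markers was 481 to 551 CPM in controls, 339 to 369 CPM with TGF-β1 and 172 to 185 CPM with narciclasine added, with Dpt at 0 in all controls and Thy1 at 0 in all libraries with both agents. Most of that sum was Pdgfra, at 330 to 399, 168 to 191 and 97 to 105 CPM. Of the 6 fibroblast markers tested, 2 rose with TGF-β1 and 3 fell, the rises being Lum (log2 change 4.29) and Gli1 (2.95). With narciclasine added none rose and 5 fell. Over all genes tested, 33.7% rose and 38% fell with TGF-β1, and 31.6% rose and 31.1% fell with narciclasine added. The sum of 7 pericyte and smooth muscle markers was 37.9 to 44.9, 12.8 to 14.8 and 15.4 to 19.0 CPM in the same order, and that of 5 podocyte markers 188 to 294, 38.0 to 40.8 and 58.7 to 64.4 CPM. The part of these markers in the Col14a1 values was not tested.

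The other FACITs went up with TGF-β1. Col12a1 (ENSRNOG00000058470) had 866.2, 606.6 and 856.8 CPM in control NRK49F, 2065, 2007 and 2000 CPM with TGF-β1, and 1296, 1263 and 1218 CPM with narciclasine added. The groups did not overlap, and the libraries with both agents lay between the others. It rose by 1.38 (SE 0.115, adjusted p = 1.24e-06), changed by −0.68 with narciclasine (SE 0.113, adjusted p = 0.000366) and stayed 0.70 above control (SE 0.114, adjusted p = 0.000283).

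Col16a1 (ENSRNOG00000031475) had 143.4, 212.1 and 133.9 CPM in control NRK49F, 348.5, 311.8 and 334.5 CPM with TGF-β1, and 124.8, 124.9 and 119.4 CPM with narciclasine added. The group with both agents was the lowest, below every control library. Col16a1 rose by 1.02 (SE 0.16, adjusted p = 0.000533) and changed by −1.43 with narciclasine (SE 0.162, adjusted p = 0.000101). Its difference from control with both agents was −0.41 (SE 0.161, adjusted p = 0.0549), which passed the threshold when any 1 control library was left out (−0.17 to −0.53, adjusted p 0.00719 to 0.0397) and with the DESeq2 Wald test (−0.39, adjusted p = 0.00521). It was smallest without control replicate 2.

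Col27a1 (ENSRNOG00000007657) had 1.86, 3.67 and 1.04 CPM in control NRK49F, 5.57, 6.70 and 6.14 CPM with TGF-β1, and 4.07, 7.77 and 3.78 CPM with narciclasine added. Both treated groups were above all controls and overlapped each other, and replicate 2 was the highest library in every group. Col27a1 rose by 1.49 (SE 0.411, adjusted p = 0.00784). Its change with narciclasine was −0.23 (SE 0.376, adjusted p = 0.622) and became −0.57 (adjusted p = 0.0442) without replicate 2 in every group. With both agents it stood 1.26 above control (SE 0.41, adjusted p = 0.0199), a call that ended without control replicate 1 (1.16, adjusted p = 0.0683) or narciclasine replicate 2 (0.85, adjusted p = 0.0693). Col15a1 (ENSRNOG00000060381) had 2, 0 and 4 counts in controls, 0, 0 and 1 with TGF-β1 and 0 in all 3 libraries with both agents, where a count of 0 allows up to 0.0585 CPM over the group (3 counts of its total, counting error only).

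**Figure D4:**
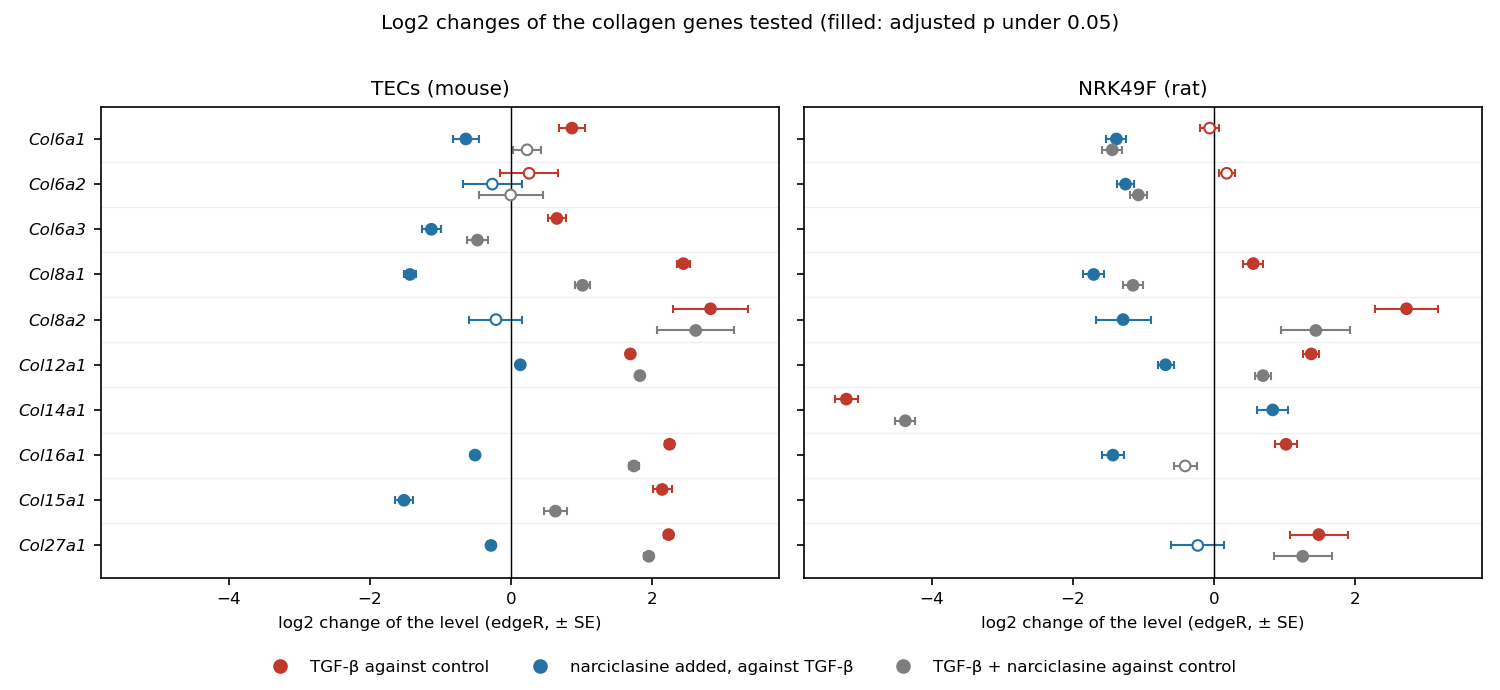
Log2 change of the level (x axis, edgeR estimate ± SE) of each collagen tested in TECs and in NRK49F, for TGF-β against control, narciclasine added against TGF-β, and both agents against control, filled where the adjusted p was under 0.05. With narciclasine added, Col12a1 moves by 0.14 in TECs and by −0.68 in NRK49F, and Col14a1 in NRK49F is far to the left at −5.21 with TGF-β.

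The difference of each response between the cell kinds was tested in 1 fit over all 18 libraries and 12135 shared symbols. Over all symbols, the TGF-β1 response differed for 61.5% and the narciclasine response for 46.9%. Col14a1 was below the filter in TECs and Col15a1 in NRK49F. Each entered the fit through the other cell kind alone, so their differences are not given as results. Of the 7 collagens tested in both cell kinds, the TGF-β1 response differed for 3, against 72% of the 9852 symbols tested in both, and the narciclasine response for 2, against 56%. With TGF-β1, Col8a1 rose more in TECs than in NRK49F by 1.86 (SE 0.237, adjusted p = 1.03e-05) and Col16a1 by 1.20 (SE 0.22, adjusted p = 0.000306). Col6a1 had a difference of 0.89 (SE 0.351, adjusted p = 0.0424) that was no longer called without TECs control replicate 1, 2 or 3, TECs TGF-β1 replicate 1 or 2, NRK49F TGF-β1 replicate 2 or NRK49F narciclasine replicate 2 (adjusted p 0.0517 to 0.107), nor with the 4 groups compared alone (adjusted p = 0.0681). A replicate block within each cell kind also ended the call for Col6a1 (0.88, adjusted p = 0.0825). Col12a1 differed by 0.28 (SE 0.125, adjusted p = 0.0641) and was called without NRK49F control replicate 2 (0.43, adjusted p = 2.1e-10).

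With narciclasine added, Col12a1 differed by 0.88 (SE 0.123, adjusted p = 2e-05), being up in TECs and down in NRK49F. Col16a1 differed by 0.99 (SE 0.201, adjusted p = 0.00111), falling further in NRK49F. Col8a1 had log2 changes of −1.44 and −1.78 in this fit, and their difference of 0.34 was not called (SE 0.221, adjusted p = 0.245). Without NRK49F control replicate 2, the differences of Col6a1, Col6a2 and Col8a1 were called as well.

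Counts over lists of related genes are given beside the shares of all genes tested, which with TGF-β1 were 34.1% rising and 34.9% falling in TECs and 33.7% and 38% in NRK49F, and with narciclasine added 26.8% and 25.5% in TECs and 31.6% and 31.1% in NRK49F. Of 10 genes of receptors that bind these collagens tested in TECs, 8 rose and 1 fell with TGF-β1 (median 0.92), among them the integrin subunit Itga2 (1.62), the discoidin domain receptor Ddr1 (1.54) and the collagen VI-binding proteoglycan Cspg4 (1.44), and the integrin subunit Itga1 changed by −1.31. With narciclasine added 7 fell and none rose (median −0.32), led by Itga11 (−0.95), Ddr2 (−0.78), Itga2 (−0.48) and Itgb1 (−0.34). In NRK49F 6 of 9 rose and 2 fell with TGF-β1 (median 1.06), with Itga2 at 4.82, Itga11 at 3.52, Itga1 at 2.42 and the collagen VI receptor Antxr1 at −2.06. With narciclasine added 2 rose and 7 fell (median −0.78), with Itga2 at −3.71, Itga1 at −1.78, Ddr2 at −1.17 and Cspg4 at −1.06.

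Matrix proteins that bind FACIT or beaded collagens were also counted. In TECs 6 of 10 tested rose and 2 fell with TGF-β1 (median 1.08), with tenascin C gene Tnc at 2.43, Fn1 at 2.35, Vwa1 at 2.22 and the elastic fibre gene Emilin1 at 2.21. Narciclasine lowered 7 of the 10 and raised none (median −0.53), with Emilin1 at −2.48, the proteoglycan gene Bgn at −1.24, Vwa1 at −0.67 and Fbln2 at −0.61. In NRK49F 9 of 10 rose with TGF-β1 and none fell (median 1.97). The fibril-binding proteoglycan gene Fmod was at 8.42, from 0.307 CPM in controls to 108 CPM. Lum, also of that kind, was at 4.29, Tnc at 4.98 and Fbln2 at 3.47. With narciclasine added 1 rose and 9 fell there (median −1.03), with Fmod at −3.68, Lum at −3.01, Vwa1 at −1.94 and Fbln1 at −1.54.

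Of the collagens outside the list, the further FACIT, network, beaded and multiplexin genes had 4 of 5 tested up with TGF-β1 in TECs (median 1.68), led by the anchoring fibril collagen Col7a1 at 2.76, with Col22a1 at 1.80, Col10a1 at 1.68 and Col18a1 at 0.21. In NRK49F 1 of 3 rose, Col7a1 at 7.59, from 0.041 CPM in controls to 9.37 CPM, so the size of this change rests on control counts near 0. Narciclasine lowered 3 of 5 in TECs, with Col10a1 at −1.91, Col7a1 at −0.42 and Col18a1 at −0.29, and 3 of 3 in NRK49F, with Col18a1 at −3.26, Col7a1 at −2.40 and Col22a1 at −0.60. Some of these genes were scarce, which limits the size of their changes. In TECs Col10a1 had 0.361 CPM in controls and 1.13 CPM with TGF-β1, and Col22a1 had 0.427 and 1.51 CPM. Col18a1 in NRK49F had 1.00 CPM with TGF-β1. Of the fibrillar collagens, 8 of 9 rose in TECs and 6 of 7 in NRK49F with TGF-β1, where 1 fell, and narciclasine lowered 7 of 9 and 6 of 7. Genes of collagen folding, secretion and processing had 19 of 26 up and 4 down with TGF-β1 in TECs (median 0.50), among them the prolyl hydroxylase subunit P4ha3 at 3.41, the procollagen protease Bmp1 at 1.68, its enhancer Pcolce at −1.65 and the chaperone Fkbp10 at 1.39, and 15 of 22 up and 3 down in NRK49F (median 0.86), with the lysyl hydroxylase Plod2 at 1.79, the proteases Mmp14 and Furin both at 1.37 and the collagen chaperone Serpinh1 at 1.34. P4ha3 in TECs had 0.332 CPM in controls and 3.63 CPM with TGF-β1. With narciclasine added 2 of 26 folding, secretion and processing genes rose and 16 fell in TECs (median −0.26) and 1 of 22 rose and 19 fell in NRK49F (median −0.57). Of 16 TGF-β1 target genes, all rose with TGF-β1 in both cell kinds (medians 1.04 and 2.14), and with narciclasine added 8 fell and 3 rose in TECs and 6 fell and 2 rose in NRK49F (medians −0.05 and −0.24).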

How the data were processed

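RNA was measured by sequencing in 18 libraries, 3 in each of 6 groups. The authors deposited 1 table of counts per gene and library for each cell kind, not normalised, and all their columns were used. Per the submitters' processing notes, HISAT2 2.1.0, featureCounts and DESeq2 were used, with the mouse build mm10 named for all samples. No source used here gives the rat build, and rat genes are given by the identifiers of the table. Mouse coordinates and exon lengths are those of GENCODE M21 (GRCm38).

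Groups follow the treatment labels. Each cell kind was fitted alone with edgeR 4.0.16 (R 4.3.3): filterByExpr by group, TMM scaling, robust quasi-likelihood fit over 9 libraries, and Benjamini-Hochberg adjustment over all genes tested, with a threshold of 0.05. The SE of a log2 change or difference was derived from its test, as its absolute value divided by the square root of the F statistic. The difference between cell kinds was fitted over 18 libraries and the 15927 symbols that occur once in each table, before the filter. Chain ratios used the counts as deposited (with 1 added to each as an alternative) and an exact two-sided permutation test. The floor of a count of 0 covers counting error only. Alternatives were other scalings, no filter, the DESeq2 1.42.0 Wald test, fewer groups, a replicate block and leaving out libraries. The edgeR script was tested on simulated data.

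The genes, the context and marker lists and the tests were chosen with earlier results of these data known. All listed collagens are named whatever their values, and up to 4 changed genes of a context list in order of the size of their log2 change. The TGF-β1 targets and markers named with values were chosen after their values were seen, and 1 item of the lists is not reported here. Col6a3 in NRK49F was not analysed here, so its planned ratio was not computed.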

Additional observations from a re-analysis of the deposited data

Results flagged for a closer look

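These results are listed because the response of a collagen differed between the cell kinds in a test of the difference itself. The test was edgeR's quasi-likelihood interaction (TECs minus NRK49F, log2 scale), adjusted over 12135 symbols. Only collagens tested in both cell kinds are given. Of these 7, 3 differed with TGF-β1, beside 72% of the 9852 such symbols, and 2 with narciclasine, beside 56%. Such differences were thus not more frequent among the collagens than over all symbols. Cell kind and species cannot be told apart in any of these differences. With TGF-β1, the differences were 1.86 for Col8a1 and 1.20 for Col16a1, both higher with TGF-β1 in 3 of 3 libraries of each cell kind. That of Col6a1 was 0.89, and its direction in NRK49F rests on control replicate 2. The Col6a1 difference kept its call in 16 of 25 alternatives, whereas those of Col8a1 and Col16a1 kept theirs in 25 of 25. With narciclasine added, Col12a1 differed by 0.88, every library with both agents being above all libraries with TGF-β1 alone in TECs and below them in NRK49F. Col16a1 differed by 0.99, lower with narciclasine in all libraries of both cell kinds.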

How the results depend on the processing

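Of the alternatives to the log2 change of each collagen, 787 kept the direction and the side of the threshold, 10 lost a call, 9 gained one and 9 turned sign. For the differences between cell kinds the numbers were 402, 10, 20 and 18. The counts of collagens called in each comparison within a cell kind stayed within 1.5 times of those reported under every alternative run, at 8 to 8 (TGF-β1) and 6 to 8 (narciclasine) in TECs, 6 to 8 in both comparisons in NRK49F, and 6 to 7 in TECs and 5 to 8 in NRK49F with both agents against control. The number of collagens whose TGF-β1 response differed between cell kinds was 5 in the joint fit of 9, beside 61.5% of all symbols. It was 3 of the 7 tested in both cell kinds, beside 72%, an alternative chosen after seeing the data. The joint fit held Col14a1 and Col15a1, each tested in 1 cell kind alone, so counts out of 9 describe the fit only. The number whose narciclasine response differed was 3 of 9, Col14a1 included, beside 46.9% of all symbols, and 2 of the 7 tested in both cell kinds, beside 56%. Under the alternatives 5358 to 6221 of all symbols differed. The count out of 9 became 5 with the DESeq2 Wald test, 6 with the 4 groups compared alone and 7 without replicate 2 in every group. Leaving out 1 library at a time gave 3 to 6, with 6 without NRK49F control replicate 2.

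Every sign change was in a value without a call, of which Col6a1 in NRK49F was then called. With TGF-β1 it became 0.16 without replicate 2 in every group and 0.14 without control replicate 2, Col6a2 became −0.077 in TECs without replicate 2 in every group, and Col6a2 in NRK49F became −0.0036 with total counts. With narciclasine, Col8a2 in TECs became 0.26 without replicate 2 in every group, 0.023 without TGF-β1 replicate 2 and 0.017 without narciclasine replicate 2 (−0.45 to 0.023 with 1 library left out). With both agents against control, Col6a2 in TECs became 0.18 and 0.038 without control or narciclasine replicate 1 (−0.19 to 0.18).

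Among the differences between cell kinds, that of Col15a1 with narciclasine (untested in NRK49F alone) was 0.67 in the joint fit. It became −0.31 with DESeq2 and −1.57 without NRK49F TGF-β1 replicate 3 (−1.57 to 1.17 with 1 library left out). In NRK49F, Col15a1 had 1 count over all TGF-β1 libraries and 0 over those with both agents. These values therefore cannot show whether its response differed, and no conclusion is drawn from them. Col27a1 (narciclasine) became 0.037 with the replicate block, 0.29 without replicate 2 in every group, and −0.26 to 0.43 with 1 library left out. Col6a2 (TGF-β1) became −0.49 without replicate 2 in every group and −0.15 to 0.36 with 1 library left out. Col8a2 (TGF-β1) became −1.08 in the former setting and −0.52 to 0.47 in the latter. The difference for Col12a1 with TGF-β1 was called with size factors by RLE (0.30, adjusted p = 0.0493), total counts (0.35, 0.0336) and DESeq2 (0.30, 0.0216). The cause of these shifts was not tested.

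The labels do not say whether replicate numbers pair the samples, and no pairing was used in the main fits. Same-numbered libraries deviated together with r of −0.102 to 0.166 in TECs and −0.0404 to 0.118 in NRK49F. A library correlated best with its own number in 2 of 18 and 7 of 18 looks. With 3 libraries per group, these values cannot settle whether samples were handled in pairs. A replicate block moved the genes called with TGF-β1 from 9139 to 9027 in TECs and from 8216 to 8169 in NRK49F. Total counts moved the median gene with TGF-β1 to −0.135 in TECs and −0.237 in NRK49F, and the share of rises among calls from 49.4% to 34.8% and from 47% to 35%. Depth limits Col6a2, Col8a2 and Col14a1 in TECs and Col8a2 and Col15a1 in NRK49F.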

Other observations

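With both agents against control, 32.4% of all genes tested were higher and 30.6% lower in TECs, and 33.4% higher and 33.4% lower in NRK49F. Beside these shares, 6 of 10 collagen receptor genes tested were higher and 1 lower in TECs, led by Ddr1 (log2 difference 1.42) and Cspg4 (1.34), and 6 of 9 were higher and 3 lower in NRK49F, where the collagen-binding integrin subunit Itga11 stood at 3.34 and Antxr1 at −1.57. Matrix partner genes had 4 of 10 higher and 2 lower in TECs (Fn1 2.06, Tnc 1.86, Vwa1 1.55, the basement membrane gene Nid1 −1.48). In NRK49F 8 of 10 were higher and none lower (Fmod 4.74, from 0.307 CPM in controls, and Tnc 3.99). Fibrillar collagens had 7 of 9 higher and 2 lower in TECs and 5 of 7 higher and none lower in NRK49F. There Col11a1 stood at 3.65, from 0.142 CPM in controls. Col5a2 was at 1.61, Col3a1 at 0.77 and Col1a1 at 0.71, while Col6a1 and Col6a2 were below control. Folding and processing genes had 18 of 26 higher and 5 lower in TECs and 9 of 22 higher and 7 lower in NRK49F, and TGF-β1 targets 14 of 16 higher and 1 lower in TECs and 16 of 16 higher in NRK49F. Further network, FACIT and multiplexin collagens had 2 of 5 higher and 1 lower in TECs and 1 of 3 higher and 2 lower in NRK49F. There Col7a1 stood at 5.19, from 0.041 CPM in controls, and Col22a1 at −0.49. Col18a1, the multiplexin related to Col15a1, stood at −4.30, with 0.0943 CPM.

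Summed marker levels of other cell kinds in TECs, in the order control, TGF-β1 and both agents, were 46.6 to 48.9, 71.4 to 75.7 and 30.2 to 30.9 CPM for 10 macrophage and leukocyte genes. They were 6655 to 6761, 8440 to 8860 and 9143 to 9378 CPM for 8 epithelial genes, 176 to 181, 120 to 124 and 182 to 185 CPM for 10 proximal tubule genes, 128 to 131, 139 to 148 and 134 to 141 CPM for 7 endothelial genes, and at most 9.01 CPM in any library for 7 distal tubule and collecting duct genes and at most 127 CPM for 5 podocyte genes. In NRK49F the epithelial sum was 1202 to 1259, 669 to 776 and 573 to 626 CPM, most of it Krt8. There the macrophage and leukocyte sum was 61.0 to 105, 63.2 to 72.7 and 43.2 to 54.0 CPM, the proximal tubule sum 33.3 to 80.1, 93.1 to 101 and 42.5 to 46.4 CPM, the endothelial sum 3.12 to 4.75, 13.3 to 15.1 and 1.59 to 3.803 CPM, and the distal tubule sum at most 1.14 CPM in any library. Of the 10 proximal tubule genes, 5 were at 0 in all NRK49F controls (Lrp2, Slc22a6, Slc22a8, Slc34a1 and Slc5a12). The endothelial genes Cdh5 and Emcn and the macrophage genes Adgre1 and Itgam were also at 0 there. The part of these marker sums in the collagen values was not tested.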
